A study of Mus musculus with 6 samples.

Results

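The 10 genes described here belong to the BCL2 family, which sets whether a stressed cell keeps or loses the barrier function of its outer mitochondrial membrane. The names were listed with earlier results of these data known and matched to the symbol column of the deposited counts, and all 10 were found among 11922 genes. RNA had been sequenced from splenic CD8+ T cells of C57BL6/J mice that were activated with anti-CD3/anti-CD28 Dynabeads for 72 hours and expanded for 4 more days, with recombinant human IL-2 at 100 units/ml throughout. One group of cultures received water (vehicle) and the other 0.25 mM AOA (aminoxyacetic acid), an inhibitor of enzymes that need pyridoxal 5'-phosphate, the active form of vitamin B6. Cells of the same 3 donor mice were put in both groups, which gave 3 vehicle and 3 AOA libraries at day 7. The cells were polyclonal, were selected with beads against CD8 alpha and were sequenced in bulk, so fewer cells of a type and less RNA per cell cannot be told apart.

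The family has 3 kinds of member. Anti-apoptotic proteins such as BCL2, BCL-XL and MCL1 hold the pore-forming effectors BAX and BAK in check, and BH3-only proteins such as BIM, PUMA, NOXA, BID and BAD sense stress and either occupy the anti-apoptotic proteins or engage the effectors directly. When BAX or BAK opens the outer membrane, cytochrome c leaves the mitochondrion and starts the caspase cascade. In T cells, cytokines of the IL-2 and IL-7 type are known to sustain the anti-apoptotic members, and BIM is known to limit survival when antigen or cytokine is withdrawn.

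Total counts ranged from 12881962 to 18934869 in vehicle libraries and from 18696114 to 21997078 in AOA libraries, and the lowest count of any of the 10 genes in a library was 241. Levels are given as CPM, the counts of a gene scaled to a common library size with the TMM method. Log2 fold changes, AOA over vehicle, came from the quasi-likelihood test of edgeR over 11759 genes, with Benjamini-Hochberg adjustment over all of them, and a gene is called changed at an adjusted p under 0.05. An exact permutation test of 3 against 3 libraries cannot give a p below 0.1, so single genes were read from that model. The CD8 T cell markers summed to between 3232 and 4154 CPM with vehicle and between 4334 and 5006 CPM with AOA. Of these 6 genes Cd8a and Cd8b1 were called higher (1.03 and 0.64 as log2 fold changes), and Cd3d, Cd3e, Cd3g and Cd247 were not called, at -0.31 to -0.13. Marker sums of 3 other cell types were lower with AOA, at 158 to 210 against 33.0 to 54.3 CPM for 4 CD4 T cell genes (of which Foxp3 was not called, at 0.36), 139 to 197 against 17.4 to 34.1 CPM for 3 of 4 NK cell genes and 55.2 to 66.5 against 4.18 to 7.77 CPM for 3 of 6 myeloid genes. Of these, the NK cell gene Ncr1 was at 0 in vehicle replicates 1 and 3 and at 2.35 CPM in vehicle replicate 2. The myeloid gene Lyz2 was at 0 in vehicle replicates 1 and 3 and at 0.317 CPM in vehicle replicate 2. With vehicle the NK cell sum was mostly Klrk1 (mean 117 CPM) and Klrb1c, at 41.7, 111 and 20.1 CPM in replicates 1 to 3. The myeloid sum was mostly Itgam (mean 45.4 CPM). Whether this RNA came from other cell types or from CD8 T cells was not tested. The 4 B cell genes analysed summed to 12.6 to 16.6 CPM with vehicle and 22.6 to 30.7 CPM with AOA, the 1 of 4 dendritic cell genes was at 4.37 to 5.26 against 0.687 to 1.29 CPM, and the 4 erythroid genes were not analysed here. The part of these other cells in the results below was not tested.

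Promoter sequences of 4 members are shown, which are both BH3-only genes that fell, an anti-apoptotic gene that rose and an effector that rose. Each is the 250 bases before a transcription start in RefSeq (GRCm38.p6, the build that the submitters' notes give as mm10), read 5′ to 3′ on the strand of the gene, and capitals mark matches to the motifs searched. The sequences are of Bcl2l11 at chr2:128125788-128126037 on the plus strand, Bbc3 at chr7:16310011-16310260 on the plus strand, Bcl2 at chr1:106714291-106714540 on the minus strand and Bax at chr7:45466899-45467148 on the minus strand.
Bcl2l11: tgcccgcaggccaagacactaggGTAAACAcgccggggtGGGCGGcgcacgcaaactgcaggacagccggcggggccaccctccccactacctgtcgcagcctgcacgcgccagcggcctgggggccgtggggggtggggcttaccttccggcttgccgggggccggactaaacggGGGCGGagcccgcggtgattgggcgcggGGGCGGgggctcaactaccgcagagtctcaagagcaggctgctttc
Bbc3: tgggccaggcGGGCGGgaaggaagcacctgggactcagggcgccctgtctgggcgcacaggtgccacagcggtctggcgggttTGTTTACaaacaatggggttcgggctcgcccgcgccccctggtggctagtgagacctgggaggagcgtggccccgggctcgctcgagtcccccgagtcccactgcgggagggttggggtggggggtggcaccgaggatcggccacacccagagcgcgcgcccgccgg
Bcl2: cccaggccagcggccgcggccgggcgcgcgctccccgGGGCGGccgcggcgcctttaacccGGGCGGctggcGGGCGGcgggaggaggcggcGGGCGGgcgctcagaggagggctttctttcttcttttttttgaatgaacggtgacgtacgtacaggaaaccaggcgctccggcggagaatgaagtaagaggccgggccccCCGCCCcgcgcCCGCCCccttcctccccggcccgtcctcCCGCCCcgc
Bax: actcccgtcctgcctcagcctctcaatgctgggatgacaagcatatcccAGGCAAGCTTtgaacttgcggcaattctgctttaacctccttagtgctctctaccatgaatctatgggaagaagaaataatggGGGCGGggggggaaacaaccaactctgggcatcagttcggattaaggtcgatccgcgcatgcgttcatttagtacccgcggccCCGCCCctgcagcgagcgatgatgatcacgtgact
The search covered both strands for 6 motifs, which were the FOXO core GTAAACA, the STAT palindrome TTCNNNGAA, the E2F forms TTTCCCGC and TTTGGCGC, the cyclic AMP response element TGACGTCA, the GC box GGGCGG and the p53 decamer. In these 4 windows no match overlapped another. RefSeq held windows for 9 of the 10 members, 15 windows in all, and Pmaip1 is named only. The FOXO core was found in Bcl2l11, from 227 to 221 bases before the start, and in the second of the 3 windows of Bbc3, from 167 to 161 bases before that RefSeq start, which is 2 of the 15 windows beside 3.17% of all 32841 windows. This window of Bbc3 is shown because it holds the FOXO core. Its start is uncertain, since no GENCODE vM21 transcript of Bbc3 held a stretch of the sequence that follows it, and the gene as annotated begins farther upstream, at 16308398. The same holds for the first window of Bbc3 and for the window of Mcl1, which lies inside the annotated gene. The GC box was found in 10 of the 15 windows, from 7 members and with 7 copies in the window of Bcl2, beside 32.75% of all windows. These 10 windows were 54.0% to 81.6% G and C, beside a median of 52.0% for promoters of all genes, windows 2 and 3 of Bbc3 overlap, and 3 of the 10 have the uncertain starts described above. A p53 decamer match, AGGCAAGCTT, lay 201 to 192 bases before the start of Bax, a motif held by 7.13% of all windows. Neither the STAT, the E2F nor the cyclic AMP motif was found in any of the 15 windows, and Bcl2l1 held no match in its 3 windows. A match is a run of letters and not a measured binding site.

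All 10 members passed the low-count filter. With AOA 4 were called higher and 3 lower, so 7 of 10 were called, where 53% of all tested genes were called. The higher calls were 4 of 10 against 26.2% of all genes, and the lower calls 3 of 10 against 26.8%. The 3 AOA libraries lay all above the 3 vehicle libraries for 3 members and all below for 3 members. For all tested genes the groups were apart in this way in 62.1%, with 31.0% above and 31.1% below. These shares over 10 genes are near the background, and the family as a whole is not set apart by them. Its median absolute log2 fold change was 0.64, beside 0.56 for all tested genes. What follows is therefore about which members moved, in which direction and by how much.

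**Figure D1:**
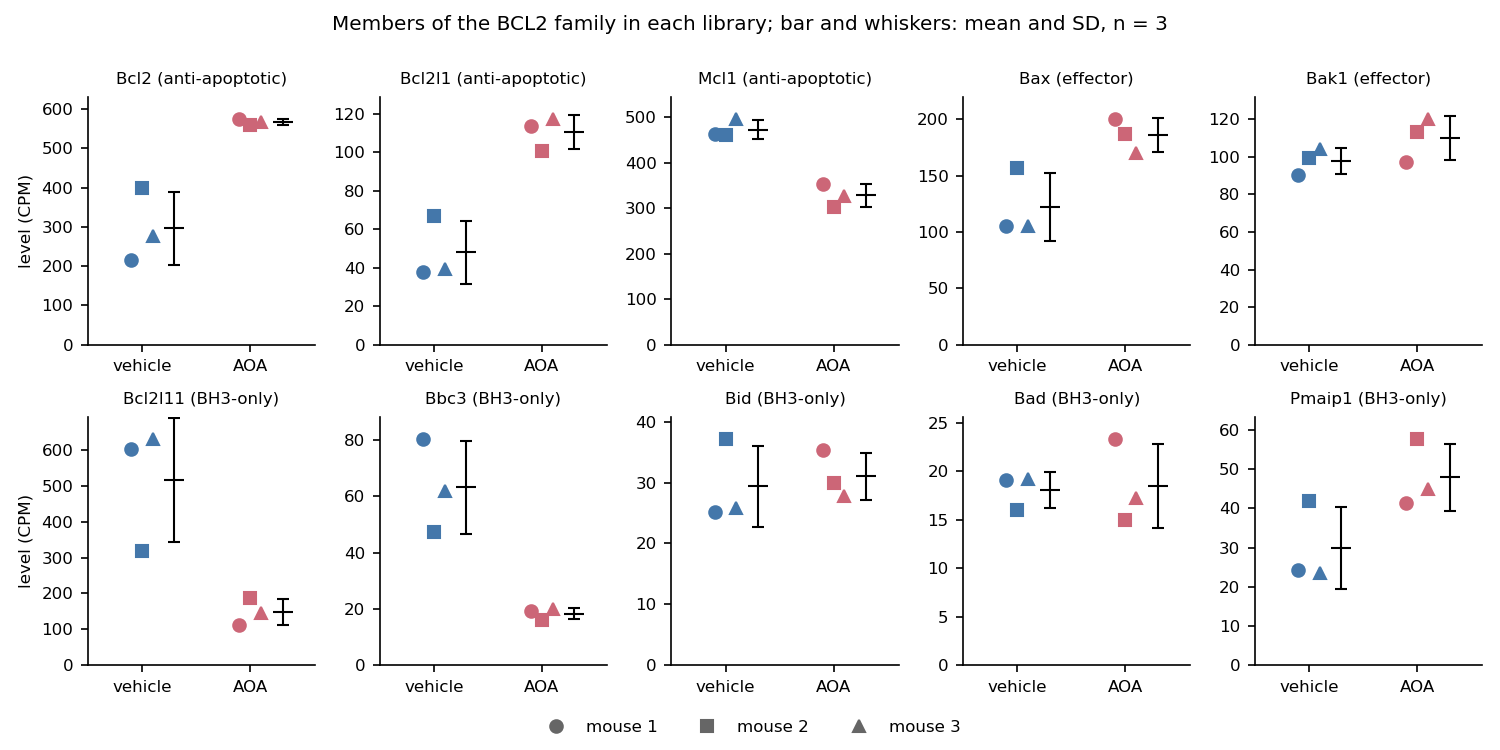
Levels of the 10 members in CPM (vertical axes, starting at 0) in the vehicle and AOA libraries, with a symbol for each donor mouse and the mean and SD of 3 libraries beside them. The groups did not overlap for Bcl2, Bcl2l1, Mcl1, Bax, Bcl2l11 and Bbc3, and vehicle replicate 2 lay nearest to the AOA libraries for each of them.

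Of the anti-apoptotic members, Bcl2 and Bcl2l1 rose with AOA and Mcl1 fell. Bcl2 (Entrez 12043, chromosome 1 from 106538176 to 106714290) encodes the protein that gave the family its name and that long-lived lymphocytes depend on. Its level was 216, 398 and 277 CPM in vehicle libraries 1 to 3 and 575, 559 and 568 CPM in AOA libraries 1 to 3. Every AOA library was above every vehicle library, and the AOA libraries lay close together while the vehicle libraries were spread. The mean rose from 297 ± 92.9 to 568 ± 7.82 CPM (SD, n = 3), or 0.93 ± 0.22 (SE) as a log2 fold change (edgeR adjusted p = 0.00561). The within-mouse changes on the log2 scale were 1.41, 0.49 and 1.04 in mice 1, 2 and 3.

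Bcl2l1 (Entrez 12048, chromosome 2 from 152758732 to 152833803) encodes BCL-XL, an anti-apoptotic protein that is induced on T cell activation. It was at 37.7, 66.9 and 39.5 CPM in the vehicle libraries and at 114, 101 and 117 CPM in the AOA libraries. The groups were again apart, with vehicle replicate 2 above the other vehicle libraries. The mean rose from 48.0 ± 16.4 to 111 ± 8.62 CPM (SD, n = 3), or 1.20 ± 0.22 (SE) as a log2 fold change (edgeR adjusted p = 0.00161). This was the largest rise among the 10 genes. Transcripts of Bcl2l1 can be spliced to a long anti-apoptotic or a short pro-apoptotic form, and counts per gene do not separate them.

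Mcl1 (Entrez 17210, chromosome 3 from 95656944 to 95663179) encodes a short-lived anti-apoptotic protein that is controlled largely through its synthesis and degradation. It was at 462, 460 and 495 CPM with vehicle and at 354, 303 and 326 CPM with AOA. All AOA libraries were below all vehicle libraries, and both groups were tight. The mean fell from 472 ± 20.0 to 328 ± 25.2 CPM (SD, n = 3), or -0.53 ± 0.14 (SE) as a log2 fold change (edgeR adjusted p = 0.0101). The change had the same sign in 3 of 3 mice, but the call was lost without vehicle replicate 3 (-0.47, adjusted p = 0.0590) and without AOA replicate 2 (-0.47, adjusted p = 0.0545).

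Because levels of different genes compare only per length, each was also expressed as RPKM with the deposited gene length. Mcl1 made up 76.3%, 63.7% and 74.0% of the summed anti-apoptotic RPKM in vehicle libraries 1 to 3 and 47.1%, 44.7% and 45.0% in AOA libraries 1 to 3. The share of Bcl2 was 16.9%, 26.2% and 19.6% with vehicle and 36.4%, 39.1% and 37.3% with AOA. Bcl2l1 took 6.79%, 10.1% and 6.43% with vehicle and 16.5%, 16.2% and 17.7% with AOA. The sum of the 3 genes itself ran from 174 to 207 RPKM with vehicle and from 195 to 215 RPKM with AOA, and these ranges overlap. In this way the make-up of the transcripts of these 3 members differed between the groups in every library, while the range of their sum did not separate the groups. The sum leaves out the anti-apoptotic genes Bcl2a1b, Bcl2a1d and Bcl2l2, which were called lower and are described below.

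**Figure D2:**
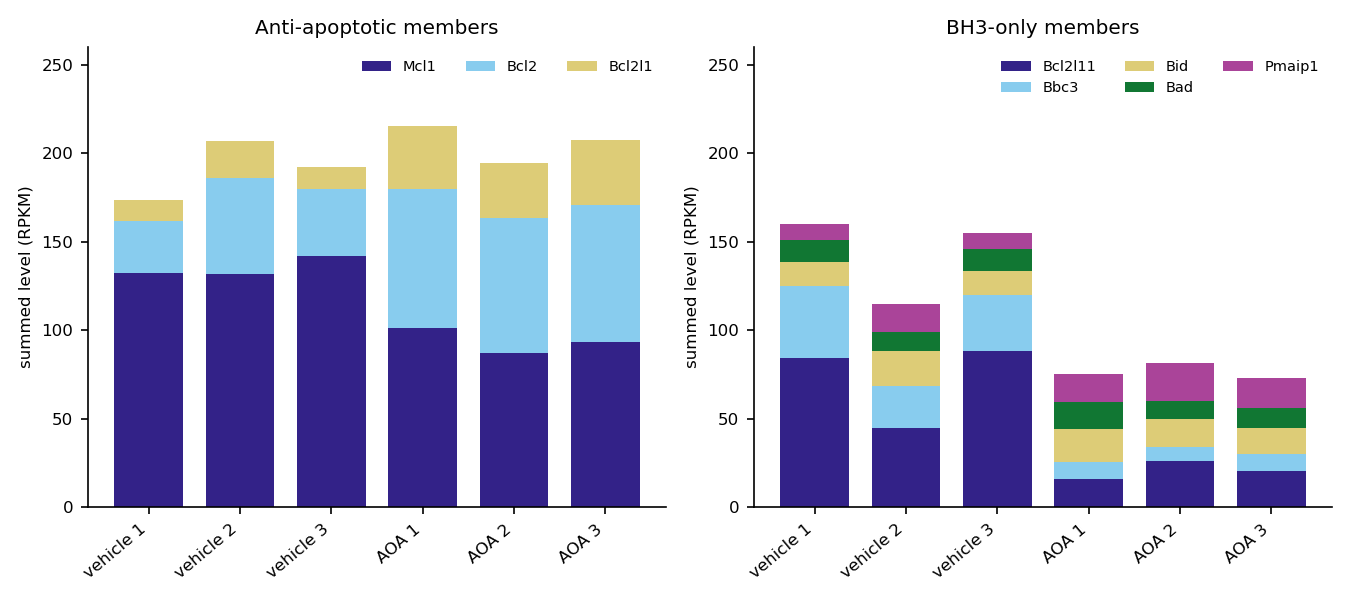
Summed levels per length (RPKM, vertical axes) of the 3 anti-apoptotic members and of the 5 BH3-only members in each library, with stacked segments for the genes. The anti-apoptotic bars were of similar height with a smaller Mcl1 segment under AOA, and the BH3-only bars were between 73.2 and 81.5 RPKM with AOA against 115 to 160 RPKM with vehicle.

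Of the effectors, Bax rose and Bak1 was not called. Bax (Entrez 12028, chromosome 7 from 45461695 to 45466903) encodes the effector that moves from the cytosol to mitochondria when it is activated. It was at 105, 157 and 105 CPM with vehicle and at 200, 187 and 170 CPM with AOA. All 3 AOA libraries were higher, with vehicle replicate 2 nearest to them. The mean rose from 123 ± 30.1 to 186 ± 15.2 CPM (SD, n = 3), or 0.60 ± 0.18 (SE) as a log2 fold change (edgeR adjusted p = 0.0193). The call of Bax was lost without vehicle replicate 1 (0.52, adjusted p = 0.0750), without vehicle replicate 3 (0.52, adjusted p = 0.0714) and without AOA replicate 1 (0.55, adjusted p = 0.0623).

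Bak1 (Entrez 12018, chromosome 17 from 27019812 to 27028627) encodes the effector that resides in the mitochondrial membrane. It was at 90.1, 99.4 and 104 CPM with vehicle and at 97.2, 113 and 120 CPM with AOA, and the groups overlapped. Its log2 fold change was 0.17 with a 95% interval from -0.13 to 0.47 (adjusted p = 0.305 by edgeR). Per length, Bax exceeded Bak1 by a factor of 2.69, 3.64 and 2.34 in the vehicle libraries and of 4.75, 3.82 and 3.26 in the AOA libraries, so that this ratio overlapped between the groups.

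Of the BH3-only members, Bcl2l11 and Bbc3 fell, Pmaip1 rose, and Bid and Bad were not called. Bcl2l11 (Entrez 12125, chromosome 2 from 128126038 to 128162547) encodes BIM, which binds all the anti-apoptotic proteins and is a known target of FOXO factors. It was at 603, 319 and 631 CPM with vehicle and at 112, 186 and 144 CPM with AOA. The groups did not overlap, and mouse 2 had both the lowest vehicle and the highest AOA level. The mean fell from 517 ± 173 to 148 ± 36.9 CPM (SD, n = 3), so that the vehicle mean was 3.51 times the AOA mean. The fitted log2 fold change was -1.81 ± 0.28 (SE; edgeR adjusted p = 7.51e-04). Within mice 1, 2 and 3 it was -2.42, -0.78 and -2.13.

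Bbc3 (Entrez 170770, chromosome 7 from 16308398 to 16318334) encodes PUMA, another BH3-only protein with broad binding and a known target of p53 and of FOXO factors. It was at 80.3, 47.4 and 62.0 CPM with vehicle and at 19.1, 15.9 and 19.8 CPM with AOA. Every AOA library was far below every vehicle library. The mean fell from 63.2 ± 16.5 to 18.3 ± 2.07 CPM (SD, n = 3), or -1.79 ± 0.20 (SE) as a log2 fold change (edgeR adjusted p = 1.51e-04). The within-mouse changes were -2.06, -1.57 and -1.64 on the log2 scale. The fitted falls of Bcl2l11 and Bbc3 were of similar size, while in mouse 2 that of Bcl2l11 was the smaller.

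Pmaip1 (Entrez 58801) encodes NOXA, which binds MCL1 in preference to the other anti-apoptotic proteins and is a known p53 target. It was at 24.2, 42.0 and 23.5 CPM with vehicle and at 41.3, 57.7 and 45.0 CPM with AOA. The groups overlapped, since vehicle replicate 2 was above AOA replicate 1. The mean rose from 29.9 ± 10.5 to 48.0 ± 8.56 CPM (SD, n = 3), or 0.68 ± 0.24 (SE) as a log2 fold change (edgeR adjusted p = 0.0370), and the change was positive in 3 of 3 mice. This was the least stable of the 7 calls. It was lost without any single library other than vehicle replicate 2, with log2 fold changes between 0.54 and 0.78 and adjusted p between 0.0598 and 0.119, whereas without vehicle replicate 2 the log2 fold change was 1.04. It was also lost when only genes of at least 10 CPM in 3 libraries were tested (adjusted p = 0.0508).

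Bid (Entrez 12122, chromosome 6 from 120893119 to 120917062) encodes the protein that caspase 8 cleaves to link death receptors to mitochondria. It was at 25.2, 37.2 and 25.9 CPM with vehicle and at 35.4, 30.0 and 27.8 CPM with AOA. Its log2 fold change was 0.08, with a 95% interval from -0.34 to 0.50 (adjusted p = 0.752 by edgeR). Bad (Entrez 12015, chromosome 19 from 6941861 to 6951905) encodes a BH3-only protein that is held inactive by phosphorylation downstream of growth signals. It was at 19.1, 16.0 and 19.2 CPM with vehicle and at 23.3, 15.0 and 17.2 CPM with AOA, with a log2 fold change of 0.03 and a 95% interval from -0.41 to 0.48 (adjusted p = 0.896 by edgeR). For both genes the groups overlapped and the sign differed between mice.

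**Figure D3:**
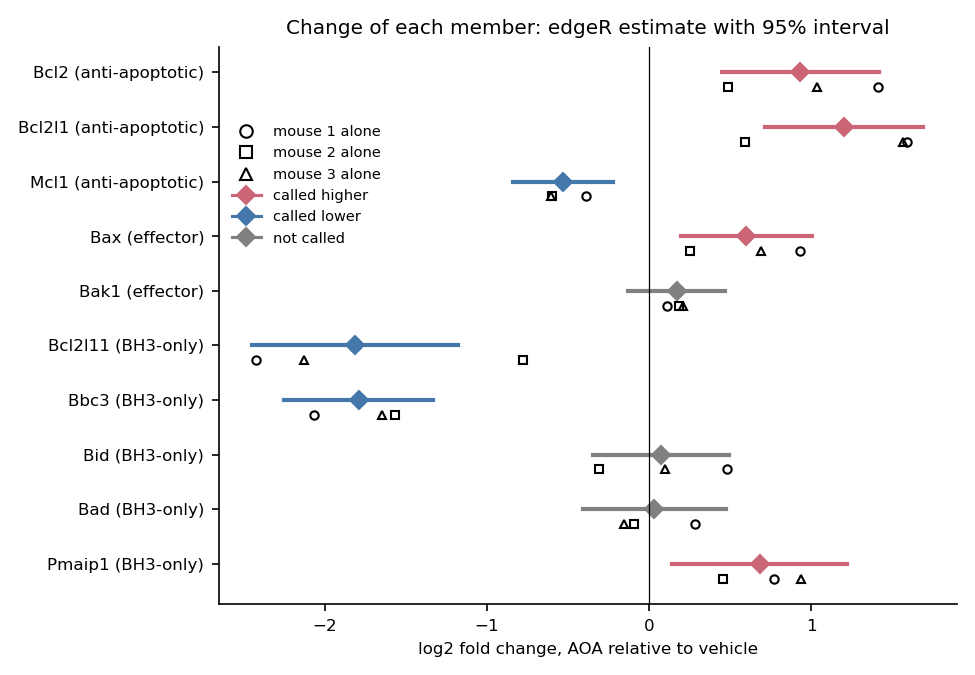
Log2 fold change of AOA relative to vehicle (horizontal axis) for each member, with diamonds and bars for the edgeR estimate and its 95% interval and open symbols for each mouse alone. Bcl2l11 and Bbc3 lie near -1.8, Bcl2l1 has the highest estimate at 1.20, and the intervals of Bak1, Bid and Bad include 0.

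Read per length, Bax and Mcl1 were the most abundant members with vehicle, at 141 ± 34.6 and 136 ± 5.72 RPKM (SD, n = 3), and their ranges overlapped. Bcl2l11 was next at 72.5 ± 24.2 RPKM, and its range overlapped that of Bak1, at 48.8 ± 3.52 RPKM. Bak1, Bcl2 and Bbc3 followed with overlapping ranges between neighbours, while Bid, Bcl2l1, Bad and Pmaip1 formed the lowest group, from 15.6 RPKM for Bid to 11.3 RPKM for Pmaip1, and each neighbour overlapped the next. With AOA the order was Bax at 214 ± 17.5, Mcl1 at 94.0 ± 7.22, Bcl2 at 77.2 ± 1.06, Bak1 at 55.0 ± 5.86 and Bcl2l1 at 34.6 ± 2.70 RPKM (SD, n = 3), and no neighbouring ranges overlapped among these. Bcl2l11, at 20.7 ± 5.18 RPKM, came after them, followed by Pmaip1, Bid, Bad and last Bbc3 at 9.25 ± 1.05 RPKM, and here each neighbour overlapped the next. By the means, Bcl2l11 was in place 3 with vehicle and place 6 with AOA, Bbc3 in places 6 and 10 and Bcl2l1 in places 8 and 5, but single libraries differed, and in vehicle replicate 2 Bcl2l11 was below both Bcl2 and Bak1.

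The balance between BIM and BCL2 transcripts is a plain way to see these moves. The RPKM of Bcl2l11 was 2.88, 0.824 and 2.35 times that of Bcl2 in vehicle libraries 1 to 3 and 0.201, 0.342 and 0.262 times in AOA libraries 1 to 3. With AOA, Bcl2 exceeded Bcl2l11 in every library, and with vehicle it did so in replicate 2. Among the 5 BH3-only members, Bcl2l11 took 39.0% to 57.1% of the summed RPKM with vehicle and 21.0% to 32.0% with AOA. The shares of 3 other members were larger with AOA, while the sum was smaller, with 5.69% to 13.8% against 20.8% to 26.7% for Pmaip1, and, for genes not called, 8.33% to 17.1% against 19.4% to 24.9% for Bid and 7.85% to 9.17% against 12.1% to 20.4% for Bad. That of Bbc3 was 20.3% to 25.4% with vehicle and 9.88% to 13.7% with AOA. The summed RPKM of the 3 anti-apoptotic members was 1.08, 1.81 and 1.24 times that of the 5 BH3-only members in the vehicle libraries. In the AOA libraries it was 2.87, 2.39 and 2.83 times. These ratios describe RNA and carry no test. The sums are not totals of each kind, since they leave out relatives such as Bmf, Bik, Bcl2a1b, Bcl2a1d and Bcl2l2. Of these, Bmf went from a mean of 58.0 to 4.38 CPM and Bcl2a1b from 26.6 to 6.36 CPM, Bcl2a1d and Bcl2l2 also fell, and Bik was not called.

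Vehicle replicate 2 was the vehicle library nearest to the AOA mean for 7 of the 7 called members. It was the nearest for 57.1% of all 6233 called genes, so its position is shared well beyond the family. Mouse 2 had the smallest within-mouse change for 6 of these 7 genes and for 54.7% of all called genes, and the exception was Mcl1, which changed least in mouse 1. AOA replicate 1 stood apart as well, by a chi-square per gene of 70.9 and 64.3 from AOA replicates 2 and 3, which differed by 10.5, while vehicle replicate 2 differed from the other vehicle libraries by 55.2 and 59.9 and those from each other by 10.03. Without AOA replicate 1, 5 members were called, since Bax and Pmaip1 were not. Without vehicle replicate 2 the log2 fold changes of 6 of the 7 were larger in size, for example 1.24 for Bcl2 and -2.03 for Bcl2l11, that of Mcl1 was -0.51, and 7 members were still called. The spread among AOA libraries, as the SD divided by the mean, was below that among vehicle libraries for 7 of 10 members and for 52.6% of all tested genes. For Bcl2 it was 1.38% with AOA and 31.3% with vehicle.

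Of 16 other BCL2 family genes listed, 9 were analysed, and of these 5 fell and 2 rose, together 77.8% beside 53% of all genes. The steepest fall was that of Bmf, whose BH3-only protein responds to loss of attachment and growth factors. Bmf was at 67.6, 40.6 and 65.8 CPM with vehicle and at 3.17, 6.03 and 3.93 CPM with AOA, with every AOA library far below the vehicle libraries. Its fitted log2 fold change was -3.73 ± 0.29 (SE; edgeR adjusted p = 2.33e-05), a larger fall than that of either Bcl2l11 or Bbc3. The anti-apoptotic genes Bcl2a1b, Bcl2a1d and Bcl2l2 fell too, with log2 fold changes of -2.06, -1.73 and -0.83 and adjusted p of 1.49e-04, 0.00805 and 0.00159 by edgeR. The Bcl2a1 genes are near-identical copies, so their separate levels are uncertain. Anti-apoptotic genes thus moved in both directions, with Bcl2 and Bcl2l1 up and Mcl1, Bcl2a1b, Bcl2a1d and Bcl2l2 down.

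Among the remaining relatives, Bnip3l, a receptor for mitochondrial autophagy, had a log2 fold change of -0.52 (adjusted p = 0.0402), Bcl2l12 of 0.59 (adjusted p = 0.0354) and Bcl2l13 of 0.32 (adjusted p = 0.0410 by edgeR). Each of these 3 calls was lost in several of the fits that left out a library, and that of Bcl2l13 also when a replicate block for the mouse was fitted (adjusted p = 0.0841). Without AOA replicate 3, 0 of the 9 were called higher by edgeR, where DESeq2 and limma on all libraries called 2, and 3 were higher at an unadjusted p under 0.05 with all libraries. Bik and Bnip3 were not called, at 0.92 (adjusted p = 0.0651) and 0.29 (adjusted p = 0.345), and Bik was called without vehicle replicate 3 (1.29, adjusted p = 0.0345) or without AOA replicate 2 (1.12, adjusted p = 0.0479). Without AOA replicate 1 the value for Bnip3 was -0.06.

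**Figure D4:**
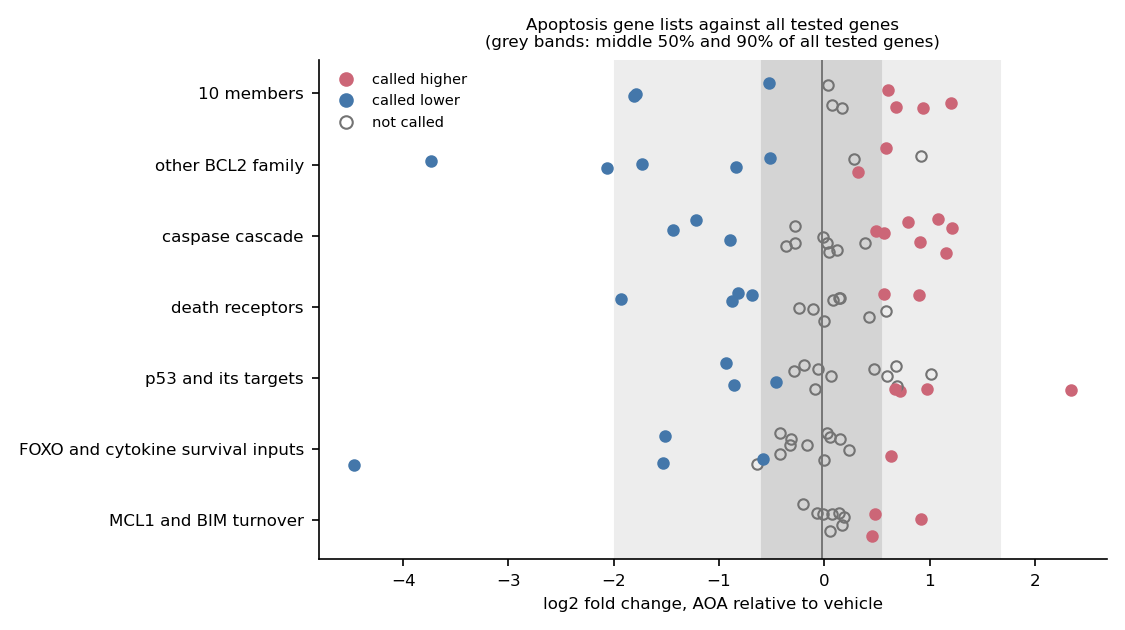
Log2 fold change of AOA relative to vehicle (horizontal axis) of the 10 members and of the tested genes of 6 other apoptosis lists, each point a gene, over grey bands for the middle 50% and 90% of all 11759 tested genes. Bmf and Il7r lie farthest to the left, at -3.73 and -4.46, and Gtse1 farthest to the right at 2.34.

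Downstream of the pore, 7 of 18 genes of the caspase cascade rose and 3 fell, together 55.6% beside 53% of all genes. Among those that rose were Cycs, which encodes cytochrome c, and Diablo, whose product relieves inhibition of caspases, with log2 fold changes of 1.16 and 1.08. Those that fell were the ubiquitin ligases Birc2 and Birc3, which restrain death signalling, and the initiator caspase Casp9, with -1.43, -1.22 and -0.90. The largest adjusted p of these 5 was 0.00191, for Casp9 (edgeR). Apaf1, the scaffold that cytochrome c binds, was not called (-0.28, adjusted p = 0.176).

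Of 14 genes of the death receptor route, 4 fell and 2 rose, together 42.9% beside 53% of all genes. Fasl, the ligand that T cells use to kill through Fas, fell from 77.8, 78.0 and 76.0 CPM to 27.1, 20.1 and 13.6 CPM, a log2 fold change of -1.93 (adjusted p = 1.69e-04 by edgeR). Tnfrsf1b, a receptor for TNF, and Cflar, which blocks caspase 8, fell by 0.88 and 0.82 on the log2 scale (adjusted p = 0.00263 and 0.00140), and Fadd, the adapter of death receptors, and Ripk3, a kinase of necroptosis, rose by 0.90 and 0.56 (adjusted p = 0.00201 and 0.00510). Fas itself was not called (0.15, adjusted p = 0.690).

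Of 17 genes for p53 and its known targets, 4 rose and 3 fell, together 41.2% beside 53% of all genes. Vehicle replicate 2 was the highest vehicle library for 14 of the 17, against 42.2% of all tested genes. Without it 11 were called higher, and 8 with a replicate block for the mouse were called higher. Trp53, the gene of p53, rose with a log2 fold change of 0.72 (adjusted p = 0.00408 by edgeR), and its vehicle libraries were alike, at 120, 120 and 119 CPM. Gtse1, a regulator of p53 made in dividing cells, rose most at 2.34 (adjusted p = 1.92e-04), ahead of Aen at 0.98 (adjusted p = 0.0191), a nuclease gene. The call of Aen was lost without vehicle replicate 1, without vehicle replicate 3, without AOA replicate 1 and without AOA replicate 3 (adjusted p from 0.0561 to 0.0727), and without vehicle replicate 2 its value was 1.51. Btg2 and Mdm4, an antiproliferative gene and a p53 inhibitor, fell by 0.93 and 0.86 on the log2 scale (adjusted p = 0.00244 and 0.00705), and Trp53inp1 was at -0.46 (adjusted p = 0.0242), a call lost without any single library other than AOA replicate 1 (adjusted p from 0.0508 to 0.119). Cdkn1a, which encodes the cell cycle inhibitor p21, was at 56.4, 217 and 73.2 CPM with vehicle and at 81.3, 122 and 101 CPM with AOA. It was not called with all libraries (-0.19, adjusted p = 0.733), and without vehicle replicate 2 it was higher (0.68, adjusted p = 0.0157). Of 3 members known as p53 targets, Bax and Pmaip1 also had their highest vehicle level in replicate 2, while Bbc3 had its lowest there. Among the other members, Bcl2, Bcl2l1 and Bid had their highest vehicle level in that library too, and Mcl1, Bcl2l11 and Bad their lowest.

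Of 16 genes for FOXO factors and cytokine survival signals, 4 fell and 1 rose, together 31.25%, a share below the 53% of all genes. Il7r, the receptor chain for IL-7, fell from 513, 614 and 442 CPM to 20.0, 30.5 and 20.6 CPM, and its log2 fold change of -4.46 exceeded those of all members in size (adjusted p = 1.12e-05 by edgeR). The kinases Jak3 and Jak1, which act below the shared cytokine receptor chain, fell by 1.53 and 1.51 on the log2 scale (adjusted p = 2.75e-04 and 3.24e-04). Akt1, whose product phosphorylates FOXO factors and BAD, rose by 0.63 (adjusted p = 0.00398). Foxo1 and Foxo3 were not called, at -0.42 (adjusted p = 0.163) and -0.17 (adjusted p = 0.374), with Foxo1 called lower without vehicle replicate 2 (-0.59, adjusted p = 0.0217) and at -0.27 to -0.26 without vehicle replicate 1, vehicle replicate 3 or AOA replicate 1. The IL-2 receptor genes Il2ra, Il2rb and Il2rg were not called at 0.03, -0.32 and 0.15, with no adjusted p below 0.314. Without vehicle replicate 2, 7 of the 16 were called lower.

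Of 12 genes for kinases, ubiquitin enzymes and other proteins listed for the turnover of MCL1 or BIM protein, 11 were analysed. Of these 3 rose, so that 27.3% were called beside 53% of all genes. Among them were Mapk8, encoding JNK1, at 0.92 (adjusted p = 0.00370) and the scaffold gene Ywhaz at 0.48 (adjusted p = 0.0128 by edgeR). None of the 11 was called lower by edgeR, DESeq2 or limma, with 0 at an unadjusted p under 0.05, where 26.8% of all genes were called lower. The call of Ywhaz was lost without AOA replicate 2, without AOA replicate 3 or without vehicle replicate 1. Without AOA replicate 1, 5 of the 11 were called higher and without AOA replicate 2, 1 was. Huwe1, Fbxw7 and Usp9x, which add or remove ubiquitin on MCL1, were at -0.20, -0.07 and 0.06 with adjusted p of 0.393, 0.677 and 0.775.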

How the data were processed

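RNA counts of 6 libraries were analysed. Per the labels and methods, the authors made stranded messenger RNA libraries, aligned paired-end reads with STAR, and deposited for each gene a length and the raw counts of reads that mapped uniquely. The submitters' processing notes also name featureCounts, DESeq2, bcl2fastq and mm10. Aligner and counter versions, annotation, any gene filter and use of strand in counting were not given in the sources used here. In GENCODE vM21 exons of Bad, Bak1 and Bid overlap opposite-strand genes by 20.5%, 25.5% and 17.7% of their bases (Bid with Bcl2l13), Bcl2 an antisense gene by 6.09% and Bax a same-strand gene by 12.2%, and such reads may not be told apart.

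Counts were fitted in R 4.3.3 with edgeR 4.0.16 (filterByExpr with a minimum count of 10, TMM, robust quasi-likelihood test) without a block. Log2 CPM had a prior count of 2. The steps were tested on simulated data in which a far smaller share of genes was changed than was called here, so the rate of false calls at that share was not tested. Alternatives used DESeq2 1.42.0, limma 3.58.1, other scalings and filters, the mouse as a block, and each library left out. The lists and motifs, like the members, were chosen with earlier results of these data known. Genes named are all members and tested relatives, and up to 3 called genes per direction of each other list with at least 5 CPM, while uncalled or further genes of a list were named after their values were seen. Mouse numbers come from the labels and mark the same donor. Deviations from group means correlated within mice with r of 0.0868, 0.189 and 0.194 across genes, which are not independent replicates. Replicates of a group differed beyond sampling noise. Columns of per-sample values without a sample numbered 0. A planned search of the member proteins was not run, and some listed genes that the rule would name are not reported here.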

Additional observations from a re-analysis of the deposited data

How the results depend on the processing

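The 13 alternatives left the direction of each of the 7 called members as given, and Bcl2, Bcl2l1, Bcl2l11 and Bbc3 were called in all of them. Leaving out single libraries brought the number of called members from 7 to between 4 and 7, the number called higher from 4 to between 2 and 4 and the number called lower from 3 to between 2 and 3, with the fewest without vehicle replicate 3. Fewer libraries were fitted there by construction. The number of all genes called was 6233, and between 4952 and 6796 with a library left out. With a replicate block for the mouse, 7 members and 6292 genes were called, and among the genes named the pairing changed the call of Bcl2l13 and no other. Total counts in place of TMM shifted the median log2 fold change of all genes from -0.02 to -0.01. Cdkn1a and Eda2r, not called with all libraries, changed sign and were called without vehicle replicate 2, and the cause was not tested. Over the fits with a library left out they ran from -0.50 to 0.68 and from -0.58 to 2.38. With limma they were at 0.049 and 1.47 and with the replicate block at 0.052 and 0.50, not called. Other uncalled genes near 0 changed sign too, with a library left out: Bid (-0.025 to 0.31), Bad (-0.16 to 0.17), Bnip3 (-0.059 to 0.48), Fas (-0.084 to 0.41), Usp9x (-0.026 to 0.19) and Il2ra (-0.36 to 0.32). Il2ra was also at -0.0075 with limma, -0.011 with genes of at least 10 CPM and -0.014 with the block. Among members and all other listed genes, 1101 of 1231 values kept their direction and side of the threshold, 46 lost a call, 25 gained one and 59 changed sign, 57 of them not called either way. The lowest count of a member was 241, and each comparison rests on 3 cultures per group.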
